A study of Bos taurus with 16 samples.

Results

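Unstimulated monocyte-derived macrophages (MDMs) of Holstein and Gir cattle were compared with each other. The comparison takes the 8 libraries of cells that received culture medium without a stimulus, out of 16 libraries in all, with 4 from Holstein animals (1, 3, 20 and 50) and 4 from Gir animals (2, 5, 6 and 7). Holstein is a taurine and Gir an indicine breed, and the labels of the libraries give only the subspecies, which the study's methods tie to the breeds. The animals were healthy, 6 to 12 months old and kept at 1 station. Mononuclear cells of the blood were left to adhere and differentiate for 11 days in medium with fetal bovine serum, and non-adherent cells were washed away. The other 8 libraries come from the same animals' cells after 48 hours with 100 ng/ml of lipopolysaccharide (LPS). Each library is 1 animal and no animal is in both breeds, so the breeds were compared without pairing. What an animal contributed apart from its breed (its culture, its sex, its day of collection) cannot be told apart from the animal itself. Directions follow the breed labels, so "higher in Holstein" means higher in the libraries labelled taurine. The study's sample codes give the Gir animals the same numbers as the labels do. Its codes for Holstein (H1, H2, H3 and H5) match the labels in 1 and 3 but not in 20 and 50. Its read totals of unstimulated libraries have the larger spread in Gir, as the labelled unstimulated libraries do. With LPS its read totals have the larger spread in Holstein. The signs in its table of this contrast, read the way its text reads them, run the other way, and how that table coded the breeds was not settled here.

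Macrophages are phagocytes that take up microbes and dead cells, present antigens to T cells and release cytokines. Blood monocytes become macrophage-like when they adhere in culture, and MDMs without a stimulus show the state from which a response to a bacterial product such as LPS starts. Antigen-presenting molecules of the major histocompatibility complex, which macrophages carry, are among the most variable genes of vertebrates, and individuals and breeds can differ in which copies they hold. The deposited counts list genes by Ensembl identifier without symbols, and 0 of the 27607 identifiers matched the gene table used here. So neither the macrophage identity of the cells nor the presence of other adherent cells could be checked with marker genes in these counts. The study itself followed differentiation by microscopy and flow cytometry, and reports more CD14 and less CD11b after 11 days. Genes are described here by level and pattern, and the 2 with the largest difference in each direction are named by identifier.

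The count on genes lay between 7362247 and 9820099 per unstimulated library. CPM is a gene's count scaled to a common library total. Genes that reached 1 CPM in 4 or more of the 8 libraries were tested, which left 12565 genes. A gene under 1 CPM in each library of a breed was thus tested only if all 4 libraries of the other breed reached 1 CPM. The CPM values given below were also scaled with TMM factors, which correct for differences in composition and lay between 0.925 and 1.07. Between 15044 and 16652 genes had a count in a library. Holstein 3, Gir 5 and Gir 6 had the fewest, with 15328, 15044 and 15070, and each of the other 5 libraries had at least 15920. The share of counts held by the 100 genes with the most counts ranged from 31.7% to 39.8%. The highest 2 shares were those of Gir 5 and Gir 6. Genes that were at least 1.5 higher on the log2 scale with LPS in each of 7 animals (10 to 36 genes, depending on which animal was set aside) were higher with LPS in the remaining animal in every case except 1 of 13 genes in Holstein 3. Genes lowered as much in each of 7 animals were few. There was 1 when Holstein 3 was set aside, which was higher with LPS in Holstein 3 (by 0.74), and there were 1 for Gir 5 and 5 for Gir 6, which were lower there too. In the 8 animals the raised genes followed the stimulus labels, apart from the 1 gene in Holstein 3.

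Unstimulated MDMs of the breeds differed in few genes. Differentially expressed genes (DEGs) had a false discovery rate (FDR) under 0.05 after Benjamini-Hochberg adjustment in edgeR's quasi-likelihood test and a log2 fold change of 1 or more in either direction. There were 40 DEGs among the 12565 genes tested, which is 0.318% of them. Of these, 10 (0.0796% of the genes tested) were higher and 30 (0.239%) were lower in Holstein than in Gir. The absolute log2 fold change of the DEGs ranged from 1.09 to 8.28, with a median of 2.66, while the median over all genes tested was 0.26. The median signed log2 fold change of all genes tested was 0.05. A difference of at least 1 on the log2 scale was seen in 1435 genes (11.4%), and among these more were higher in Holstein (862) than lower (573), the opposite of the balance among the DEGs. Before adjustment, p was under 0.05 for 1475 genes (11.7%), of which 593 were higher and 882 lower in Holstein, and the lowest adjusted p of the contrast was 0.00168. On the same 12565 genes and thresholds, edgeR's exact test called 221 and its likelihood ratio test 232. DESeq2's Wald test called 336, but of 14296 genes left by its own filter. Each of these sets held all 40.

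**Figure D1:**
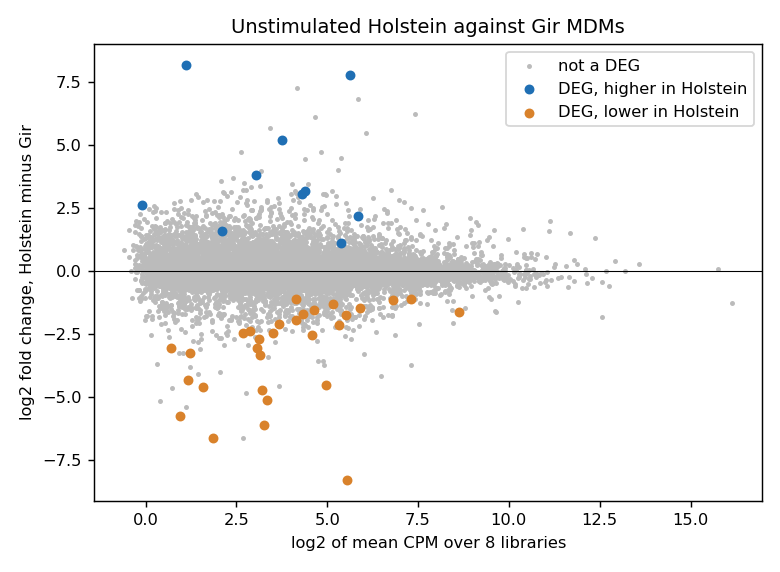
Log2 fold change of Holstein minus Gir (vertical axis) against the log2 of the mean CPM over the 8 unstimulated libraries (horizontal axis) for the 12565 genes tested, 1 point per gene. The 10 DEGs higher in Holstein are blue and the 30 lower in Holstein are orange, and genes with changes as large as those of the DEGs are also among the grey points.

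Among the DEGs, 12 differed by 4 or more on the log2 scale, 3 higher and 9 lower in Holstein. Between 2 and 4 there were 16 DEGs, 5 higher and 11 lower. Between 1 and 2 there were 12, 2 higher and 10 lower. In each of the 40 DEGs the values of the 4 Holstein libraries did not overlap with those of the 4 Gir libraries. The same held for 998 of all genes tested (7.94%), of which 358 were higher and 640 lower in Holstein, and 958 of these 998 were not DEGs. The gap between the closest animals of the 2 breeds in a DEG had a median of 1.63 on the log2 scale and ranged from 0.54 to 6.26. In 31 of the 40 DEGs it was at least 1.

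The largest difference toward Gir was seen in ENSBTAG00000009725. Its CPM was 0.321, 0, 0.456 and 0.349 in Holstein 1, 3, 20 and 50 and 126, 52.8, 140 and 55.8 in Gir 2, 5, 6 and 7. Every Gir library was above every Holstein library, and within Gir the values fell into a higher pair (2 and 6) and a lower pair (5 and 7). The mean was 0.281 ± 0.197 CPM in Holstein and 93.7 ± 45.9 CPM in Gir (SD, n = 4 each), with 10 counts over the Holstein and 3117 over the Gir libraries. The ratio of these summed counts, Gir to Holstein, was 316 after scaling by library totals (without TMM factors, here and for the ratios of the other named genes), with a 95% interval of counting error from 172 to 660. The log2 fold change was -8.28 ± 0.64 (SE) with an adjusted p of 0.00273 in edgeR's quasi-likelihood test.

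ENSBTAG00000048514 was low in Gir but nearly without counts in Holstein. Its CPM was 0, 0.125, 0.114 and 0 in Holstein 1, 3, 20 and 50, from 2 counts in all. It was 6.54, 7.00, 8.23 and 6.73 in Gir 2, 5, 6 and 7, from 232 counts. The 4 Gir animals were close to each other, with a mean of 7.13 ± 0.760 CPM (SD, n = 4). The ratio of the summed counts, Gir to Holstein, was 118, with an interval from 32.2 to 978 that is wide because of the 2 counts in Holstein. The log2 fold change was -6.62 ± 0.60 (SE), with an adjusted p of 0.00406 in edgeR's quasi-likelihood test.

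Toward Holstein, the largest fitted log2 fold change belonged to ENSBTAG00000051367, a rank that rests on a breed without counts. It came after ENSBTAG00000048470 by DESeq2's Wald test (7.58 against 7.80) and without Gir 6 (8.23 against 8.44). Its CPM was 5.67, 3.76, 3.08 and 4.77 in Holstein 1, 3, 20 and 50, and it had no count in any Gir library. The mean in Holstein was 4.32 ± 1.14 CPM (SD, n = 4), from 151 counts. A count of 0 over the 4 Gir libraries allows up to 3 counts, or 0.0896 CPM of the library totals without TMM factors. Against that limit, and on the same scale, the summed counts of Holstein were at least 49.6-fold higher. The exact 95% interval of the ratio, which is two-sided where the limit of 3 counts is a bound on 1 side only, starts at 39.8. The fitted log2 fold change of 8.20 ± 0.65 (SE) depends on how the fit treats the empty breed and has an adjusted p of 0.0171 in edgeR's quasi-likelihood test. It was the only gene with 0 counts in all libraries of a breed and at least 1 CPM in all 4 of the other, and no gene had 0 counts in Holstein with at least 1 CPM in all 4 Gir libraries.

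The other gene, ENSBTAG00000048470, was well expressed in Holstein and varied among the animals. Its CPM was 211, 72.6, 31.1 and 75.2 in Holstein 1, 3, 20 and 50 and 0.385, 0, 1.03 and 0.367 in Gir 2, 5, 6 and 7. Holstein 1 held 1972 of the 3472 counts of its breed, and Holstein 20, the lowest of the 4, was still far above each Gir animal. The mean was 97.5 ± 78.3 CPM in Holstein and 0.445 ± 0.428 CPM in Gir (SD, n = 4 each). The ratio of the summed counts, Holstein to Gir, was 244, with a 95% interval of counting error from 145 to 447. The log2 fold change was 7.77 ± 0.89 (SE), with an adjusted p of 0.0133 in edgeR's quasi-likelihood test.

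**Figure D2:**
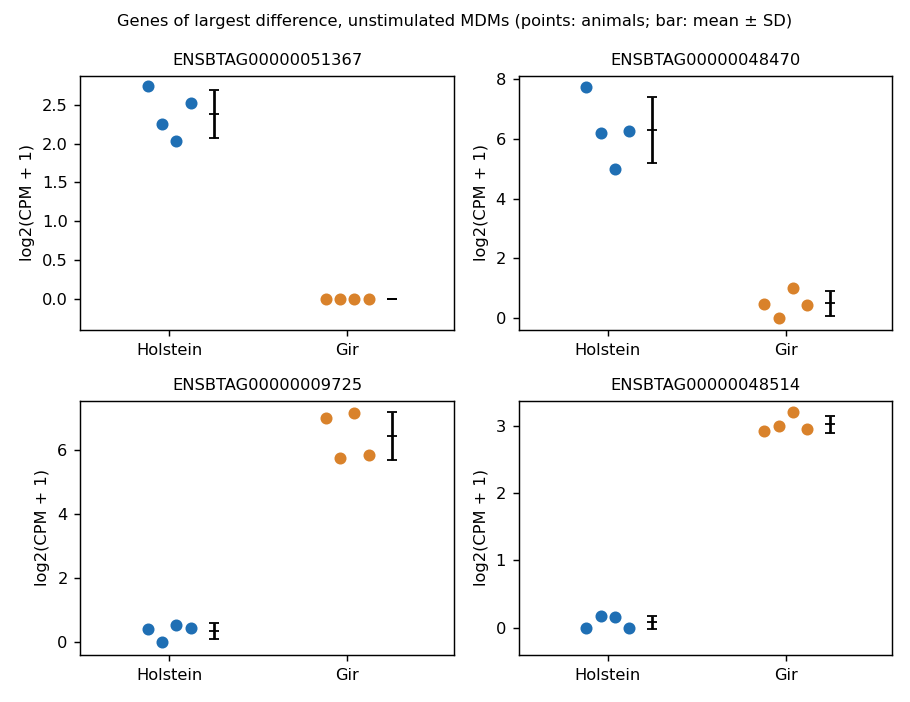
Level of the 4 named genes in each unstimulated library, as log2(CPM + 1), with 1 point per animal and the mean ± SD of the 4 animals of a breed beside the points. Each gene is near 0 in 1 breed and has counts in all 4 animals of the other. The filter of 1 CPM in 4 or more libraries required those counts in all 4 animals, so they are not a result. Holstein 1 lies highest in ENSBTAG00000048470.

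The cells of the same animals after LPS, which are not independent of the unstimulated ones, held the same separation in these 4 genes. ENSBTAG00000009725 had at most 0.497 CPM in LPS treated Holstein MDMs and at least 31.2 CPM in Gir. ENSBTAG00000048514 had 0.470 CPM in Holstein 1 and 0 in the other 3 Holstein animals, and between 3.18 and 6.31 CPM in Gir. ENSBTAG00000051367 lay between 2.55 and 5.63 CPM in Holstein, and in Gir it was 0.234 CPM in animal 5 and 0 in the other 3. ENSBTAG00000048470 was 101, 43.0, 16.2 and 65.7 CPM in Holstein 1, 3, 20 and 50, which is the order seen without LPS, and at most 0.351 CPM in Gir. In the LPS treated libraries the breeds did not overlap, in the same direction, in 37 of the 40 DEGs (8 higher and 29 lower in Holstein), beside 15.1% of all 12565 genes.

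The DEGs fell into genes with hardly any counts in 1 breed and genes with counts in both. The first kind, with a mean under 1 CPM in the lower breed, made up 14 of the 40, with 10 near absent in Holstein and 4 near absent in Gir. Near absent here refers to counts. Reads of both breeds were placed on a reference of taurine origin, and how far this bears on these counts was not tested. In the 10 genes near absent in Holstein, the Gir mean ranged from 2.93 to 93.7 CPM with a median of 6.45, and the median log2 fold change was -4.90. In the 4 genes near absent in Gir, the Holstein mean ranged from 1.61 to 97.5 CPM and the median log2 fold change was 6.49. At the low end the margin was small in absolute terms, since in these groups the lowest CPM of an expressing library was 1.71 in Gir and 1.05 in Holstein, close to the depth limit of 1 CPM used to select genes.

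Genes at an intermediate level in the lower breed, from 1 to under 10 CPM, made up 15 DEGs. The 11 lower in Holstein had Gir means between 10.9 and 59.9 CPM and a median log2 fold change of -2.44. The 4 higher in Holstein had Holstein means between 6.43 and 37.4 CPM and a median log2 fold change of 3.12. The remaining 11 DEGs had at least 10 CPM in both breeds, with 9 lower and 2 higher in Holstein. The 9 lower in Holstein had a median log2 fold change of -1.44 and a median gap between the breeds of 0.87, and in them both breeds expressed the gene and differed in degree. The DEGs as a whole were not highly expressed genes, with a median of 13.1 CPM over the 8 libraries against 22.1 for all genes tested.

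The most expressed DEG had 238, 178, 168 and 201 CPM in Holstein 1, 3, 20 and 50 and 549, 668, 645 and 535 CPM in Gir 2, 5, 6 and 7. Both groups were tight beside the distance between them, with means of 196 ± 31.0 and 599 ± 66.9 CPM (SD, n = 4 each). Its log2 fold change was -1.61 ± 0.17 (SE) with an adjusted p of 0.00884 in edgeR's quasi-likelihood test. With a filter of at least 3 libraries it remained a DEG whichever animal was left out.

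**Figure D3:**
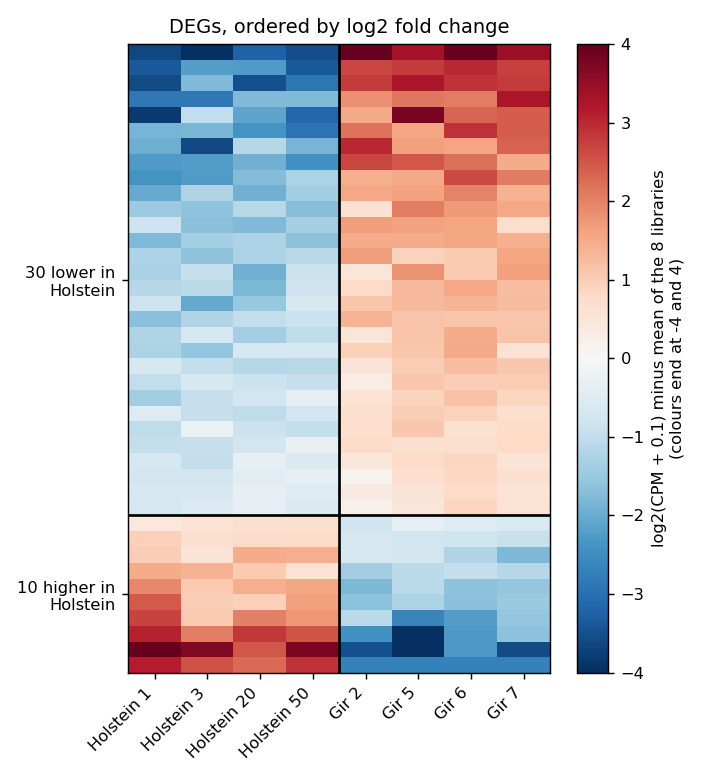
The 40 DEGs in the 8 unstimulated libraries, 1 row per gene ordered by log2 fold change and 1 column per animal. Colour gives log2(CPM + 0.1) minus the gene's mean over the 8 libraries, with colours ending at -4 and 4, and the 30 genes lower in Holstein have each of their Holstein values below each of their Gir values, with the reverse in the 10 higher in Holstein.

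Within the DEGs the animals of a breed were not equally far from the other breed. For each DEG the animal of each breed whose value was nearest to the other breed was counted. In Gir it was animal 2 in 20 of the 40 DEGs, animal 7 in 9, animal 5 in 7 and animal 6 in 4. In Holstein it was animal 3 in 13, animal 20 in 12, animal 50 in 11 and animal 1 in 4. So Gir 2 was most often the Gir animal closest to Holstein, whereas 3 Holstein animals shared that place. The median SD of log2 CPM of the DEGs was 0.35 in Holstein and 0.31 in Gir, beside 0.40 and 0.30 over all genes tested, and since the test weighs differences against this spread, the values are a description.

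Many of the calls depended on single animals. Each animal was left out in turn, with a filter of at least 3 libraries in place of 4, and the remaining 7 libraries were fitted again with edgeR's quasi-likelihood test. Without Gir 7 there were 12 DEGs, without Gir 6 there were 17 and without Gir 5 there were 26, and of the 40 DEGs 12, 17 and 21 were among them. Without Gir 2 there were 29 DEGs, among them 26 of the 40. Without Holstein 1, 20 and 50 there were 19, 27 and 24, among them 16, 19 and 20 of the 40. Without Holstein 3 there were 49, among them 32 of the 40. The direction of all 40 was kept in each of these fits. In all, 12 DEGs were called in every one of the 8 fits (2 higher and 10 lower in Holstein), and 3 were called in none. With the filter kept at 4 libraries, which removes some genes from the test when an animal is left out, the number of DEGs was 5 without Gir 6 and 5 without Gir 7, and 4 of the 40 were called in every one of the 8 fits (1 higher and 3 lower in Holstein).

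Which DEGs were called throughout followed their size in part. Of the 12 DEGs that differed by 4 or more on the log2 scale, 6 were called in all 8 fits. Of the 16 between 2 and 4, 5 were, and of the 12 between 1 and 2, 1 was. Among the named genes, ENSBTAG00000009725 and ENSBTAG00000048514 were called in all 8 fits. ENSBTAG00000051367 had adjusted p-values of 0.0740, 0.0530, 0.0792 and 0.0562 without Holstein 1, 20, 50 and Gir 7, and ENSBTAG00000048470 had 0.0510 without Gir 2 and 0.0655 without Gir 7, in edgeR's quasi-likelihood test.

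The spread between animals was large beside the difference between the breeds. Over the 12565 genes, the first principal component of log2 CPM held 48.8% of the variance between libraries and did not follow breed. On it Holstein 3 (82.1), Gir 5 (76.4) and Gir 6 (61.6) lay on 1 side, and Holstein 1, 20 and 50 (-46.8, -58.4 and -65.9) and Gir 2 and 7 (-35.6 and -13.4) on the other. Holstein 3, Gir 5 and Gir 6 were also the libraries with the fewest detected genes, and the part of this in the component was not tested. The second component held 20.1%. On it the Holstein libraries lay at -29.6, -76.7, 6.02 and -23.5 (animals 1, 3, 20 and 50) and the Gir libraries at 29.3, 31.0, 43.1 and 20.4 (animals 2, 5, 6 and 7). The breeds did not overlap there, and Holstein 20 lay nearest to Gir.

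Exact two-sided permutation tests over the 35 ways to divide 8 animals into 4 and 4 gave p = 0.257 for the first component and p = 0.0286, the smallest they can give, for the second. The share of the variance that lay between the breeds was 21.7%, and 6 of the 35 divisions gave as large a share (exact permutation test, p = 0.171). Adjusted over these 3 tests with the Benjamini-Hochberg method, the exact permutation p-values were 0.257 for the first component, 0.0857 for the second and 0.257 for the share of variance. Leaving out 1 animal moved the share to between 18.2% without Gir 6 and 37.1% without Holstein 3, and without Holstein 3 the exact permutation p was 0.0571.

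**Figure D4:**
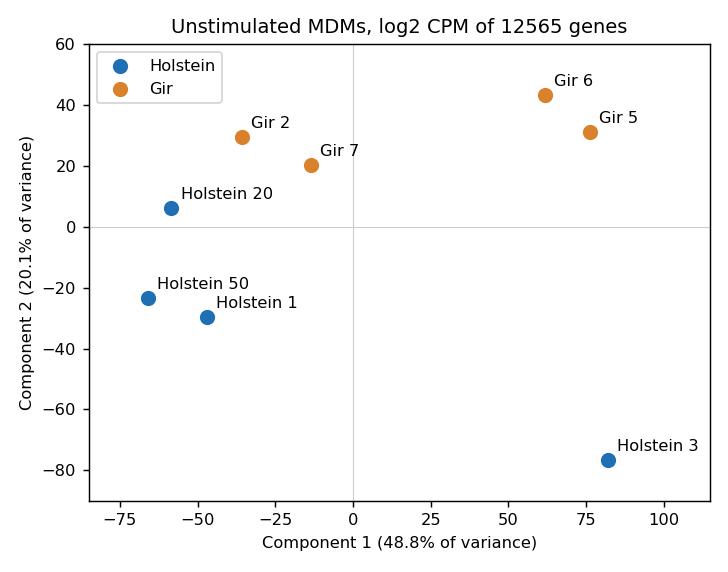
First and second principal components of log2 CPM over 12565 genes in the 8 unstimulated libraries, 1 point per animal, with the share of variance on each axis. The first component places Holstein 3 with Gir 5 and Gir 6, and on the second the 4 Holstein libraries lie at or below 6.02 and the 4 Gir libraries at or above 20.4.

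The distance between 2 libraries was also measured as the root mean square of the log2 differences over all genes tested. Within Holstein it ranged from 0.74 to 1.52 with a median of 1.12 over 6 pairs. Within Gir it ranged from 0.67 to 1.22 with a median of 1.00 over 6 pairs. Between the breeds it ranged from 0.67 to 1.45 with a median of 1.21 over 16 pairs. So the distances between animals of 1 breed covered most of the range of those between breeds. The pairs of Holstein 3 with the other 3 Holstein animals lay between 1.37 and 1.52, and the 3 pairs among Holstein 1, 20 and 50 lay between 0.74 and 0.87. In 3 libraries the closest library was of the other breed. Holstein 3 was closer to Gir 5 (1.10) than to any Holstein animal (1.37 at the nearest). Holstein 20 and Gir 2 were closest to each other, at 0.67.

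**Figure D5:**
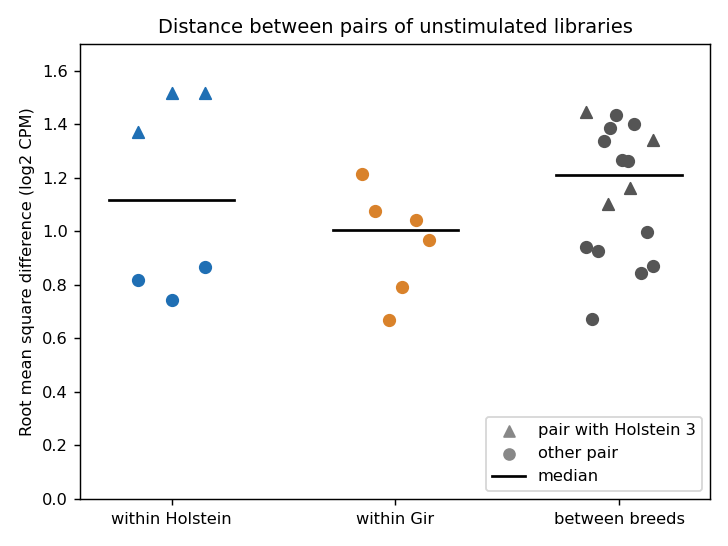
Root mean square difference in log2 CPM over 12565 genes for each of the 28 pairs of unstimulated libraries, grouped as within Holstein, within Gir and between the breeds, with the median of each group as a line. Triangles mark pairs that include Holstein 3, which make up the 3 largest distances within Holstein.

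Gene by gene, Holstein animals varied more than Gir animals. The median over genes of the SD of log2 CPM within a breed was 0.40 in Holstein and 0.30 in Gir (n = 4 animals each). The SD was over 1 in 1771 genes (14.1%) in Holstein and in 1045 genes (8.32%) in Gir. Of these, 819 genes were over 1 in both breeds, 952 in Holstein alone and 226 in Gir alone. The SD of a gene was larger in Holstein in 68.6% of genes. The biological coefficient of variation, edgeR's measure of relative variability among animals after counting noise is removed, was 0.471 within Holstein and 0.389 within Gir. The difference in spread was not tested.

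This difference rested in part on Holstein 3. Without that animal the median SD in Holstein was 0.33, the share of genes more variable in Holstein was 55.6%, and 892 genes (7.10%) had an SD over 1. The biological coefficient of variation within Holstein was then 0.357. With the same number of animals, Gir without animal 2, 5, 6 or 7 had a median SD of 0.24, 0.31, 0.30 or 0.29, an SD over 1 in 903, 1095, 1083 or 1130 genes, and a biological coefficient of variation of 0.357, 0.375, 0.393 or 0.425. Without Holstein 20 the median SD in Holstein was 0.32, although 1717 genes still had an SD over 1. In the LPS treated libraries, over 11986 genes, the median SD was 0.39 in Holstein and 0.29 in Gir.

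Animals differed from their breed in 2 ways. Over all genes, the median absolute log2 difference from the mean of the other 3 animals was largest in Holstein 20 (0.44) and Holstein 3 (0.42), and it was 0.29 in Holstein 1 and 0.30 in Holstein 50. In Gir it was 0.35 in animal 2, 0.28 in animal 7 and 0.23 in animals 5 and 6. Single genes that departed strongly were counted where an animal lay over 2 on the log2 scale from each of the other 3, and these lay within 1 of each other. Holstein 3 had 444 such genes, 434 of them lower and 10 higher. Holstein 20 had 63, Gir 2 had 41, Holstein 50 had 28, Gir 5 had 21, Holstein 1 had 13, Gir 6 had 10 and Gir 7 had 8. So Holstein 3 and Holstein 20 were close to each other on the first measure and far apart on the second.

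The 434 genes that were low in Holstein 3 were also low in some Gir animals. Their mean level in Holstein 1, 20 and 50 ranged from 0.941 to 2454 CPM with a median of 12.8. They were chosen for being low in Holstein 3, so its median difference of -3.72 on the log2 scale from the other 3 Holstein animals is a description. In the Gir libraries, which did not enter the choice, the median difference from Holstein 1, 20 and 50 was -2.83 in Gir 5, -2.82 in Gir 6, -0.84 in Gir 7 and -0.27 in Gir 2. More than 1 lower on the log2 scale were 324 of the 434 genes (74.7%) in Gir 5 and also 324 in Gir 6, and 312 genes were among both. In Gir 7 the number was 187 (43.1%) and in Gir 2 it was 48 (11.1%). Among the 9171 genes that lay within 1 of each other in Holstein 1, 20 and 50, from which the 434 were taken, the share was 7.43% in Gir 5, 7.94% in Gir 6, 4.24% in Gir 7 and 2.44% in Gir 2. So these genes separated Holstein 3, Gir 5 and Gir 6 from Holstein 1, 20, 50 and Gir 2, across the breeds, with Gir 7 between.

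Summed over the 434 genes, the level was 1449 CPM in unstimulated Holstein 3, 6374 in Gir 5 and 7538 in Gir 6, against 14732 in Gir 7 and between 18113 and 24613 in the other 4 libraries. With LPS it lay between 3929 CPM in Holstein 3 and 15140 CPM in Holstein 50. In the LPS treated libraries the 4 Gir animals lay close together in these genes, with median differences from unstimulated Holstein 1, 20 and 50 between -2.82 and -2.66, while Holstein 1, 20 and 50 lay between -1.40 and -1.14 and Holstein 3 at -2.66. In whole cultures, fewer cells of a type and less RNA per cell cannot be told apart, and markers of other cell types were not tested here.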

How the data were processed

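MDMs were sequenced as 100 bp paired-end reads of poly-A RNA. Per the labels' processing notes, the authors used FastQC, STAR 2.6.0c, HTSeq 0.10.0 and edgeR 3.8. The deposited files hold raw counts per Ensembl gene with no normalization, 1 file per library, and 5 counters of unassigned alignments, which were left out of library sizes and made up 18.8% to 23.2% of the sum of genes and counters. The paper names another genome build (ARS-UCD1.2) than the labels (UMD3.1), so no coordinates are given. The reference is of taurine origin for both breeds, and the strand setting of the counting is not given in the sources used here.

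Groups were taken from the labels. Genes reaching 1 CPM in 4 or more of the 8 libraries were fitted with edgeR 4.0.16 in R 4.3.3 (TMM, glmQLFit and glmQLFTest, unpaired, Holstein minus Gir). The thresholds for DEGs were an FDR (Benjamini-Hochberg) of 0.05 and 1 on the log2 scale. SEs are log2 fold changes over the square root of F. Log2 CPM used a prior count of 2. Single values were compared with exact two-sided permutation tests in scipy 1.17.1, and plots were drawn with matplotlib 3.10.9. Ratios of counts have exact binomial 95% intervals (Clopper-Pearson), which, like the limit of 3 counts, cover counting error only. Pairs of libraries of a breed differed by at least 31.1 times the sampling noise (chi-square per degree of freedom), so none was a duplicate.

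Alternatives were DESeq2 1.42.0 size factors, library totals, the DESeq2 Wald test, edgeR's exact and likelihood ratio tests, no filter, filterByExpr, FDR alone, 1 model over 16 libraries, leaving out each animal, and other inputs to the components. The test of the share of variance and leaving out an animal with the filter of 4 libraries were added after seeing the data. The comparison, the thresholds and the lists were chosen with earlier results of these data known. Identifiers could not be paired with symbols (0 of 27607 matched a RefSeq table of 37063 genes of ARS-UCD2.0), so planned lists of markers and pathways were not analysed here. The rule for named genes took the 2 DEGs in each direction with the largest log2 fold change and values that did not overlap between the breeds. The most expressed DEG and the genes of Holstein 3 were chosen after their values were seen.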

Additional observations from a re-analysis of the deposited data

Results flagged for a closer look

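Of 33 sets of 4 libraries checked for a single library far from the others by Dixon's ratio, 3 had one. Chance alone gives about 1 in 20, a rate that does not hold for sets with 3 values at 0, where any other value is picked out. On the first principal component Holstein 3 lay at 82.1 while the other Holstein animals lay between -65.9 and -46.8. In LPS treated MDMs, ENSBTAG00000048514 was at 0.470 CPM in Holstein 1 and at 0 in the other 3 Holstein animals. In LPS treated MDMs, ENSBTAG00000051367 was at 0.234 CPM in Gir 5 and at 0 in the other 3 Gir animals. The last 2 are such sets and rest on very few counts.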

How the results depend on the processing

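The number of DEGs (40, of which 10 higher and 30 lower in Holstein) depended on the test, with 221 (66 and 155) by edgeR's exact test and 232 (70 and 162) by its likelihood ratio test on the same 12565 genes. It was 336 (108 and 228) with DESeq2's Wald test, which tested 14296 genes, and 150 (40 and 110) in 1 model over 16 libraries, which tested 12968, so there the genes changed together with the test or model, and the cause was not tested. All 40 DEGs were called by the first 3 of these and 39 by the last. Size factors of DESeq2, library totals, no filter, filterByExpr and FDR alone gave 34 to 40 DEGs. With 1 animal left out the number lay between 12 and 49 (2 to 11 higher, 10 to 38 lower). With the filter kept at 4 libraries it was 17 (3 and 14), 48 (10 and 38), 27 (5 and 22) and 25 (4 and 21) without Holstein 1, 3, 20 and 50, and 17 (5 and 12), 8 (3 and 5), 5 (1 and 4) and 5 (2 and 3) without Gir 2, 5, 6 and 7, where as few as 31 of the 40 were still tested. The DEGs tested kept their direction under each of these settings. Over 21 of 25 alternatives each (in the other 4, which left out an animal of the expressing breed under the filter of 4 libraries, the gene was not tested), ENSBTAG00000009725 (log2 fold change between -8.60 and -7.91) and ENSBTAG00000048514 (between -7.10 and -6.24) kept their calls, and ENSBTAG00000051367 (between 7.58 and 8.31) lost its call in 7 and ENSBTAG00000048470 (between 7.06 and 8.44) in 6, each with an animal left out. With 1 animal left out, the median SD ranged from 0.32 to 0.42 for Holstein and from 0.24 to 0.31 for Gir, and the share of variance between the breeds between 18.2% and 37.1%. Genes at 0 in 1 breed numbered 3 (0 in Gir) and 1 (0 in Holstein) when at least 1 CPM was asked of 3 libraries of the other breed. Under the other inputs to the components, the unadjusted exact permutation p of the second stayed at 0.0286, the smallest possible, which says nothing of how stable it is, and that of the first lay between 0.257 and 0.286. At this depth 1 CPM was about 7 to 10 counts, so genes at a few CPM were limited by counting. No paired analysis was possible because the breeds share no animal.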
